A study of Mus musculus with 19 samples.

Results

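The cytosolic ribosomal protein genes code for the protein part of the ribosome. They were taken as the genes named Rpsa, Rplp0, Rplp1 or Rplp2, or Rpl or Rps followed by digits and optional letters, without hyphenated symbols and without the Rps6k kinases. Of 54232 genes in the table, 86 carried such a name, 82 of these were protein-coding, and 79 had 10 or more counts in at least 4 of the 19 mice. These 79 genes, 47 for the large subunit (Rpl) and 32 for the small subunit (Rps), were the members. RNA-seq counts came from total RNA of dissected striatum, the forebrain nucleus that loses projection neurons in Huntington's disease (HD), in 6-month-old mice on the C57/BL/6 background. Wild-type mice (WT, 7 mice) were compared with 3 knock-in (KI) genotypes of 4 mice each. KI-FL mice carried full-length mutant huntingtin with an expanded glutamine repeat (HD140Q). KI-571 mice carried mutant huntingtin truncated by CRISPR-Cas9 to an N-terminal fragment, and KI-96 mice carried a shorter N-terminal fragment. The study describes the KI mice as heterozygous, so that a normal huntingtin allele remained, and in a knock-in the mutant protein is made under the promoter of the mouse gene itself. The study used mice of both sexes. Sex and batch of each mouse are not in the labels.

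Each ribosome joins a small subunit, which reads the mRNA, to a large subunit, which forms the peptide bonds. Every ribosomal protein is needed in one copy per ribosome, apart from the acidic stalk proteins, and the genes lie scattered over the genome. Their mRNAs are among the most abundant in most cells and begin with a terminal oligopyrimidine (TOP) tract, a C followed by a run of C and T, through which mTORC1 signalling sets their translation together. Many members have processed pseudogenes, reverse-transcribed copies without introns, which can take or lend sequencing reads. Rpl3 lies near the peptidyl transferase centre, and Rpl3l is its muscle paralog. Rplp0, Rplp1 and Rplp2 build the stalk that recruits elongation factors. Rpl5 and Rpl11 bind the 5S rRNA and, when free, bind the p53 regulator MDM2.

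The libraries held 12669809 to 26388542 reads on genes (median 18202412), so that 3 counts, the limit that a count of 0 allows, corresponded to 0.114 to 0.237 CPM (counts scaled to a library of fixed size). Members took 0.947% to 1.79% of these reads. KI-96 replicate 3 gave the lowest share and had 24.2% of its reads outside genes against 11.1% to 16% in the other mice, and KI-571 replicate 1 gave the highest share. KI-FL replicate 4 detected 16384 genes against 23177 to 28700 elsewhere. Results that lean on these mice are given with and without them. The 11 markers of striatal projection neurons summed to 6596 to 10962 CPM over the 19 mice, and edgeR and DESeq2 called 0 of them in any KI genotype against WT (0, 0 and 1 at an unadjusted p under 0.05). Xist, the RNA that coats the inactive X chromosome of females, read 886 to 1615 CPM in the 4 KI-96 mice, 1055 in WT replicate 1, 1209.7 in KI-FL replicate 2 and at most 5.05 in the others, so that in the fit of all mice only WT replicate 1 and KI-FL replicate 2 separate KI-96 from Xist. Of the 3 protein-coding genes left out by the count rule, Rpl10l had 0 counts in all 19 mice, Rpl39l reached 10 counts in 1 mouse and Rpl36al in 2. The members nearest to the rule were Rpl24, with 10 or more counts in 9 mice, and Rpl3l, in 16.

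Rpl3, the member on which the comparison of genotypes turns, shares most of its sequence with Rpl3-ps1, a processed pseudogene on the X chromosome, so the places where the copies differ are shown first. Rpl3 (ENSMUSG00000060036.14) lies at chr15:80077791-80091868 on the minus strand (GRCm38) and its transcript Rpl3-201 has 10 exons and 1351 bases. Rpl3-ps1 (ENSMUSG00000084349.3) is a single exon of 1210 bases at chrX:13202571-13203780 on the plus strand. The pseudogene aligned to the transcript over its whole length with 2 differing bases (99.8% identity), and 953 of the 1252 possible 100-base pieces of Rpl3-201 (76.1%) occurred in Rpl3-ps1 without a mismatch. A read of that length from these pieces fits both genes, whereas reads over the 2 differing bases, over the 79 bases before the shared stretch or over the 62 bases after it can be told apart. Both differing positions lie in the coding sequence, in exon 2 and exon 6 of Rpl3, and the capital letter marks the differing base in 61-base windows.
Rpl3, exon 2, chr15:80082499-80082559, minus strand: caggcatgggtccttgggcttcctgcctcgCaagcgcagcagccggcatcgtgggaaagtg
Rpl3-ps1, chrX:13202598-13202658, plus strand: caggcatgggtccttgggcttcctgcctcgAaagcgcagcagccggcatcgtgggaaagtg
Rpl3, exon 6, chr15:80079723-80079783, minus strand: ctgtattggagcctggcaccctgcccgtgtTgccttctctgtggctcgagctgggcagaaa
Rpl3-ps1, chrX:13203327-13203387, plus strand: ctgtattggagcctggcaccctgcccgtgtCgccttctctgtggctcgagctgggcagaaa

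The start sites of several members carried the pyrimidine tract that defines TOP mRNAs, and these are shown because the tract links the members to mTORC1. RefSeq promoter entries (GRCm38.p6, 250 bases before to 50 after each start) existed for 59 of the 79 members. The motif searched was a C followed by at least 4 bases that are each C or T, on the gene's strand. It began exactly at an annotated start in 14 of the 59 members (23.7%), against 3.01% of all 27025 genes with an entry, and within 4 bases of a start in 28 members (47.5%) against 16.4% of all genes. The windows run from 30 bases before to 20 bases from the start, and capitals mark the tract. Rps27, Rpl35, Rps18 and Rplp2 held it at the start.
Rps27, chr3:90213629-90213678, minus strand: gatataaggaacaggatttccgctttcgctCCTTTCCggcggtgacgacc
Rpl35, chr2:39005112-39005161, minus strand: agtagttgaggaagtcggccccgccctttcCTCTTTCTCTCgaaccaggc
Rps18, chr17:33955646-33955695, minus strand: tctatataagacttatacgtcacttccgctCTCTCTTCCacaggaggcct
Rplp2, chr7:141447621-141447670, plus strand: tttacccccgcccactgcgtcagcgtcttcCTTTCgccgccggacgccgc
No tract lay within 4 bases of the annotated start of Rps16 or Rplp0, which says only that these letters are not at this start.
Rps16, chr7:28350659-28350708, plus strand: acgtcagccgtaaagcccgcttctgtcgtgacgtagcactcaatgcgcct
Rplp0, chr5:115559437-115559486, plus strand: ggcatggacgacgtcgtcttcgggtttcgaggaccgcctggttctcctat
Members with and without a tract near the start had close medians of the log2 fold change in KI-571 against WT, 0.18 over 28 members and 0.18 over 31 members. The same medians were 0.10 and 0.068 in KI-FL, and -0.059 and -0.035 in KI-96.

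Levels of the members in the striatum, compared per length as reads per kilobase of merged exon, scaled to library size (RPKM), spanned over 3 orders of magnitude. Rplp1, a stalk protein, was highest with a mean of 1043 (range over mice 465 to 1377). Rps15 followed at 468, then Rps21 at 335, Rpl36 at 329 and Rps29 at 321. The ranges of neighbours in this order overlapped over the mice. Rpl3 ranked 31 of 79 with 122 (range over mice 70.4 to 267). The merged exons pool all annotated transcripts of a gene. They span 3175 bases for Rpl3, against 1351 in Rpl3-201, but 499 for Rplp1 and 383 for Rpl36. The order therefore depends on annotated length as well as on read counts. The lowest members were Rpl23a at 12 (range over mice 3.13 to 34.8), Rps27rt, a retrogene copy of Rps27, at 4.69 (range over mice 1.45 to 6.84), Rpl13a at 3.29 (range over mice 2.20 to 4.71), Rpl3l at 0.523 (range over mice 0 to 0.936) and Rpl24 at 0.478 (range over mice 0 to 1.22). Rpl13a, Rpl23a and Rpl24 are core proteins of the large subunit, and 35.4% of the exonic bases of Rpl13a, 62.3% of those of Rpl23a and 47.0% of those of Rpl24 lie in exons of other annotated genes, where a read that fits both genes is counted for neither in the usual mode of HTSeq, the counting tool. Of the members, 60 had over 10% of their 100-base pieces in other genes, 21 had over 50%, and 6 had none. For this reason comparisons of the same gene between genotypes carry the results. Rps27l, the p53-responsive paralog of Rps27, ranked 74 at 12.3.

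**Figure D1:**
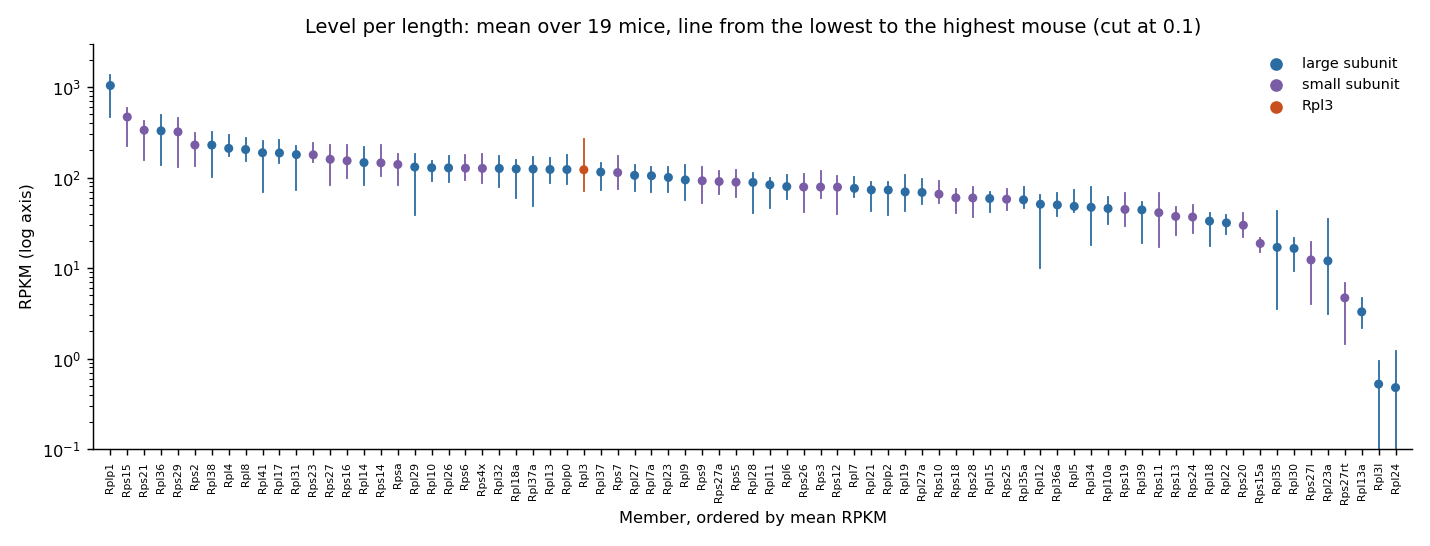
Level of 77 of the 79 members in RPKM (log axis), ordered from highest to lowest, with a point at the mean of the 19 mice and a line from the lowest to the highest mouse, cut at 0.1, in blue for the large subunit, purple for the small subunit and red for Rpl3. Rplp1 stands at 1043 and Rpl3 at 122, and the last 5 genes, from Rpl23a to Rpl24, lie at 12 or less.

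Rpl3 was the only member past the edgeR threshold in any comparison, and it was higher in KI-571 mice than in WT or KI-FL mice. In WT mice Rpl3 read 337, 223, 227, 237, 360, 336 and 265 CPM in replicates 1 to 7 (mean 284 ± 58.8 SD). In KI-96 mice it read 676, 347, 459 and 492 CPM (493 ± 137, n = 4), and in KI-571 mice 849, 505, 533 and 493 CPM (595 ± 170, n = 4). All 4 KI-571 mice and 3 of 4 KI-96 mice lay above the highest WT mouse, whereas KI-96 replicate 2, at 347 CPM, lay within the WT range. In KI-FL mice Rpl3 read 238, 252, 296 and 250.4 CPM (259 ± 25.7, n = 4), all within the WT range. Every KI-571 and every KI-96 mouse exceeded every KI-FL mouse.

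Rpl3 was 2.10-fold higher in KI-571 than in WT by the ratio of mean CPM, a log2 fold change of 1.07 ± 0.174 (SE) with an adjusted p of 0.0281 in the edgeR quasi-likelihood test with Benjamini-Hochberg adjustment over 18521 genes. KI-571 also exceeded KI-FL, by 1.20 ± 0.204 (SE, edgeR adjusted p = 0.0214). For KI-96 against WT the ratio was 1.74 and the log2 fold change 0.80 ± 0.175 (SE), which did not pass in edgeR (adjusted p = 0.223) and passed in DESeq2 (adjusted p = 0.0121). With Xist as a covariate KI-96 against WT gave 0.74 (edgeR unadjusted p = 0.0129, which did not pass after adjustment). KI-96 against KI-FL gave 0.93 ± 0.203 (SE), with an edgeR adjusted p of 0.202 and a DESeq2 adjusted p of 0.00414. KI-96 and KI-571 differed by -0.27 ± 0.201 (SE, edgeR adjusted p = 0.985), and KI-FL and WT by -0.13 ± 0.179 (SE, edgeR adjusted p = 0.734). Rpl3 was chosen with earlier results of these data known, so these values describe a gene picked for its pattern.

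The KI-571 difference leaned on single mice without losing its direction. Leaving out each of the 19 mice in turn gave log2 fold changes of 0.84 to 1.15 against WT, with edgeR adjusted p of 0.0203 to 0.0762. The call held in 13 of the 19 fits and was lost without WT replicate 3, 4, 5 or 7 or without KI-571 replicate 1 or 2. Without KI-571 replicate 1, the highest mouse, the log2 fold change was 0.84 (edgeR adjusted p = 0.0588). Against KI-FL the range was 0.99 to 1.28 with edgeR adjusted p of 0.0162 to 0.0826, and the call was lost without KI-571 replicate 1 or KI-FL replicate 1, 2 or 4.

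**Figure D2:**
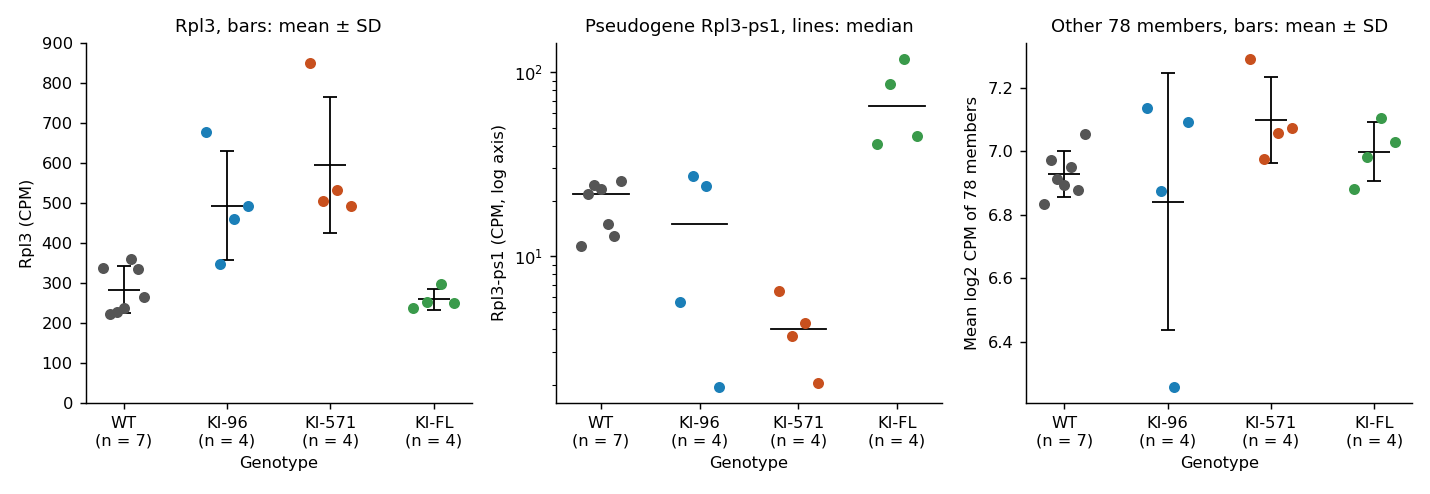
Rpl3 (CPM, left), Rpl3-ps1 (CPM on a log axis, middle) and the mean log2 CPM of the other 78 members (right), 1 point per mouse by genotype, with mean and SD in the left and right panels and a line at the median in the middle. Rpl3 sits between 493 and 849 CPM in KI-571 mice and between 238 and 296 in KI-FL mice, Rpl3-ps1 runs the other way, from 2.04 to 6.49 and from 40.8 to 118, and the other members overlap between genotypes.

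Rpl3-ps1 ran in the opposite order between KI-571 and KI-FL. In WT mice it read 11.4 CPM at the lowest, 21.9 at the median and 25.6 at the highest. WT replicates 1, 5 and 6, the highest in Rpl3, read 11.4, 14.9 and 12.9 CPM of Rpl3-ps1. The other WT mice, lower in Rpl3, read 21.9 to 25.6 CPM, so the opposite order was also seen within WT. KI-571 mice read 6.48, 3.69, 4.33 and 2.04 CPM, all below every WT mouse, and KI-FL mice 40.8, 86.4, 118 and 45.0 CPM, all above every WT mouse. KI-96 mice read 5.63, 27.4, 24.1 and 1.94 CPM, spread to both sides of the WT range. The difference between KI-571 and KI-FL passed the edgeR test, at -4.12 ± 0.590 (SE) on the log2 scale with an adjusted p of 0.0105. Against WT it was -2.20 in KI-571 (edgeR adjusted p = 0.125), 1.92 in KI-FL (adjusted p = 0.0605) and -0.38 in KI-96 (adjusted p = 0.887). Since most pieces of Rpl3 fit both copies, the counts were also summed. In its usual mode HTSeq counts a read aligned to both copies for neither. The sum therefore leaves such reads out and holds only those counted for 1 of the copies. Rpl3-ps1 made up 6.75% of the summed CPM in WT, 3.39% in KI-96, 0.676% in KI-571 and 21% in KI-FL, and the summed means were 303, 508, 599 and 332 CPM. On the sum, KI-571 exceeded WT by 0.98 on the log2 scale (edgeR adjusted p = 0.0315), while the difference between KI-571 and KI-FL was 0.85 (adjusted p = 0.140) and no longer passed. KI-96 exceeded WT by 0.75 (adjusted p = 0.288) and KI-FL by 0.61 (adjusted p = 0.420), and KI-FL exceeded WT by 0.13 (adjusted p = 0.723). Whether reads changed places between the copies was not tested, since the reads themselves were not used here.

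Set against the rest of the family within each mouse, Rpl3 stood apart by genotype in the same order. Rpl3 minus the mean log2 CPM of the other 78 members was 0.83 at the lowest, 1.0 at the median and 1.56 at the highest in WT. It was 2.26, 1.56, 2.58 and 1.85 in the 4 KI-96 mice, 2.44, 2.0, 2.0 and 1.87 in the 4 KI-571 mice and 1.01, 1.0, 1.11 and 0.94 in the 4 KI-FL mice. All KI-571 mice exceeded all WT and KI-FL mice, and KI-96 replicate 2 met the top of the WT range. The genotype means were 1.19 ± 0.328 (SD, n = 7) in WT, 2.06 ± 0.451 in KI-96, 2.08 ± 0.247 in KI-571 and 1.01 ± 0.070 in KI-FL. KI-96 replicate 3, at 2.58, was the lowest mouse in the mean log2 CPM of the other members (6.26). Without it the KI-96 mean was 1.89 ± 0.352 (SD, n = 3). WT mice were themselves uneven in Rpl3, with replicates 2, 3 and 4 at 223 to 237 CPM and replicates 1, 5 and 6 at 336 to 360 CPM.

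Among the other members, Rpl5 and Rpl34 followed Rpl3 most closely over the 19 mice, with Pearson r of 0.62 and 0.62 between log2 CPM values. Rps23 (0.50), Rpl7 (0.49) and Rps10 (0.48) came next. The lowest r belonged to Rpl13a (-0.28), Rps27l (-0.18), Rps13 (-0.15), Rpl24 (-0.15) and Rplp2 (-0.13). The median over 78 members was 0.21 and 62 lay above 0. These r run over mice of all genotypes and of unlike library depth, so they mix differences between genotypes with those between mice. KI-571 replicate 1, which was highest in several of these genes, weighs in all of them. Rpl5 read 163 at the lowest, 172 at the median and 182 at the highest (CPM) in WT mice. It read 228, 167, 180.4 and 185 in KI-96, 288, 183, 189.6 and 189 in KI-571 and 194, 181, 198 and 201 in KI-FL mice. All KI-571 mice lay above every WT mouse, replicate 1 far above the others, and the log2 fold change of 0.31 ± 0.109 (SE) did not pass (edgeR adjusted p = 0.409). Of the 100-base pieces of Rpl5, 82.7% occur in other genes, so its counts are uncertain. Rpl34 read 47.4 at the lowest, 128 at the median and 146 at the highest (CPM) in WT, 209, 152, 147 and 144 in KI-571 and 62.5, 147, 122 and 104 in KI-FL mice. KI-571 and KI-FL overlapped at the highest KI-FL mouse only, and their difference of 0.58 ± 0.268 (SE) did not pass either (edgeR adjusted p = 0.541). Rpl3l, the muscle paralog of Rpl3, was near the limit of detection, at 0.696 at the lowest, 0.814 at the median and 1.44 at the highest (CPM) in WT. It read 1.54, 1.13, 1.48 and 1.07 CPM in KI-571 and 0.797, 0.317, 0.354 and 0 CPM in KI-FL mice, so that KI-571 lay above KI-FL in all mice (log2 difference 1.81 ± 0.557 (SE), edgeR adjusted p = 0.330) on few counts.

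In KI-571 mice most members sat slightly above WT, and Rpl3 alone passed the test. By edgeR 1 of 79 members was called in KI-571 against WT (background 0.0324% of the tested genes), and by DESeq2 2, Rpl3 and Rps16 (background 0.551%). The median log2 fold change over the members was 0.17, against -0.0089 over all tested genes, and 65 of 79 lay above 0. At an unadjusted p under 0.05, 20 members were higher (25.3%, background 3.89%) and 0 lower (background 3.83%). The higher ones were Rpl11, Rpl18, Rpl22, Rpl23a, Rpl27, Rpl3, Rpl32, Rpl34, Rpl35, Rpl35a, Rpl5, Rplp0, Rps14, Rps16, Rps18, Rps19, Rps23, Rps3, Rps6 and Rps7. In 7 members (Rpl15, Rpl3, Rpl32, Rpl5, Rplp0, Rps16 and Rps7) all 4 KI-571 mice lay above all 7 WT mice (background 0.88%), and in 0 below them (background 0.67%). Large and small subunit genes had medians of 0.17 and 0.15. Over the 19 members with under 10% of their 100-base pieces in other genes the median was 0.11 and 16 lay above 0. In bulk tissue, more cells with a high ribosome content and more ribosomal protein mRNA per cell cannot be told apart.

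The tilt in KI-571 leaned on replicate 1. Without that mouse 7 of 79 members were higher at an unadjusted p under 0.05 (background 3.05%), 51 lay above 0 and the median was 0.070. The mean log2 CPM over the members was 6.94 ± 0.070 (SD, n = 7) in WT, ranging from 6.85 to 7.07, and 7.13 ± 0.138 (n = 4) in KI-571, ranging from 7.0 to 7.32. It was 7.01 ± 0.093 in KI-FL and 6.87 ± 0.402 in KI-96. KI-571 replicates 1, 3 and 4, KI-96 replicates 1 and 4 and KI-FL replicate 3 lay above the highest WT mouse.

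Among the members with the smallest p in KI-571, Rps16, whose tail reaches the decoding site of the small subunit, read 146 at the lowest, 168 at the median and 173 at the highest (CPM) in WT mice. It read 236, 186, 126 and 191 in KI-96, 289, 222, 224 and 183 in KI-571 and 209, 207, 229.5 and 250.2 in KI-FL mice. All KI-571 and KI-FL mice lay above every WT mouse, and the log2 fold changes were 0.49 ± 0.128 (SE) in KI-571 (edgeR adjusted p = 0.178) and 0.46 ± 0.129 (SE) in KI-FL (adjusted p = 0.104). Rpl32 read 92.9 at the lowest, 103 at the median and 108 at the highest (CPM) in WT. It read 159, 134, 149 and 111 in KI-571 and 112, 154, 167 and 159 in KI-FL mice, again without overlap with WT. Its log2 fold changes were 0.46 ± 0.133 (SE) in KI-571 (edgeR adjusted p = 0.248) and 0.56 ± 0.133 (SE) in KI-FL (adjusted p = 0.0669). Rps14, a protein of the small subunit platform, gave 0.46 ± 0.141 (SE) in KI-571 (edgeR adjusted p = 0.280).

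**Figure D3:**
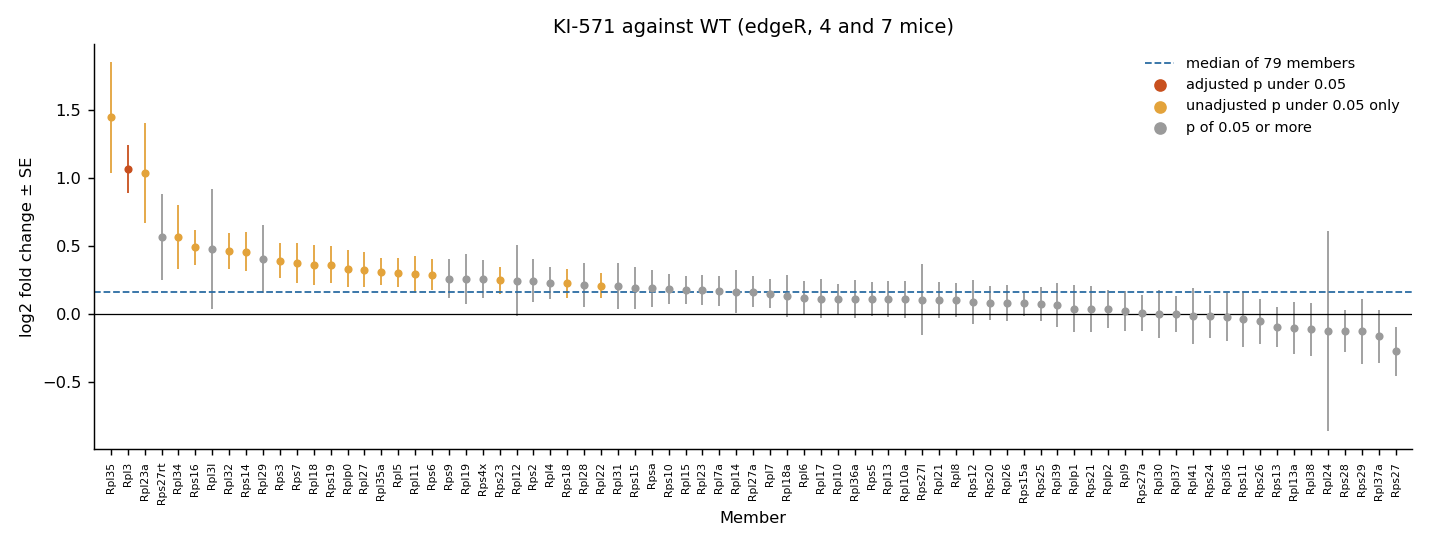
Log2 fold change of 77 of the 79 members in KI-571 against WT, ordered by size, with a line of 1 standard error to either side, a dashed line at the median of all 79 and colours for an adjusted p under 0.05 (red), an unadjusted p under 0.05 only (orange) and the rest (grey). Most values lie above 0, Rpl35 and Rpl3 head the list at 1.45 and 1.07 and Rps27 ends it at -0.27.

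In KI-96 mice no member was called against WT by edgeR (background 0.027%). At an unadjusted p under 0.05, 3 members were higher (Rpl23a, Rpl3 and Rpl35, background 4.36%) and 2 lower (Rpl37a and Rps27, background 3.09%), and DESeq2 called 1, Rpl3 (background 0.151%). In 1 member, Rpl23a, all KI-96 mice lay above all WT mice (background 0.599%), and in 0 below (background 0.643%). The median was -0.058 (all tested genes -0.015) and 29 of 79 lay above 0. The sign turned without KI-96 replicate 3, when the median was 0.078, 52 members lay above 0, and 15 were higher and 1 lower at an unadjusted p under 0.05 (background 3.67% higher and 2.91% lower). Members took 1.36% ± 0.323 (SD, n = 4) of reads in KI-96 with that mouse and 1.5% ± 0.201 (n = 3) without it, against 1.43% ± 0.091 in WT (n = 7), 1.59% ± 0.147 in KI-571 and 1.48% ± 0.117 in KI-FL. Rpl37a, a zinc-binding protein of the large subunit, gave -0.44 ± 0.197 (SE, edgeR adjusted p = 0.653), with KI-96 mice at 189.7, 133, 68.4 and 203 CPM, replicate 3 lowest, against 152 at the lowest, 200.1 at the median and 237 at the highest in WT.

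In KI-FL mice more members lay above WT than below it, and none was called by edgeR (background 0.194%). At an unadjusted p under 0.05, 12 members were higher (15.2%, background 7.89%) and 3 lower (Rpl38, Rpl3l and Rps27, background 8.84%). DESeq2 called 5, Rpl23a, Rpl32, Rpl35, Rps16 and Rps27 (background 2.75%). In 11 members all KI-FL mice lay above all WT mice (among them Rpl11, Rpl18, Rpl32, Rpl35, Rpl7a, Rplp0, Rps16, Rps19, Rps3 and Rps6, background 2.9%), and in 1, Rps27, all lay below (background 2.38%). The median was 0.069 (all tested genes -0.028), and 51 of 79 lay above 0. Calls in this comparison moved with single mice, over all genes too. Without KI-96 replicate 3 edgeR called 4 members, Rpl23a, Rpl32, Rpl35 and Rps16 (background 0.848%). Without KI-FL replicate 1 it called 3, Rpl23a, Rpl32 and Rpl35 (background 0.168%), and without KI-571 replicate 4 it called 1, Rpl35 (background 0.237%). Without KI-FL replicate 4 it called 1, Rpl23a (background 0.0368%), with 8 members higher (background 6.25%) and 5 lower (background 7.19%) at an unadjusted p under 0.05.

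Rpl35, which binds near the exit of the peptide tunnel, and Rpl23a, at the same exit, had the highest log2 fold changes of the members in KI-FL. Rpl35 read 4.36 at the lowest, 9.13 at the median and 15 at the highest (CPM) in WT. It read 22.4, 38.7, 6.61 and 18.1 in KI-96, 22.2, 35.9, 40.6 and 8.59 in KI-571 and 17.4, 44.7, 53.6 and 22.6 in KI-FL mice. Rpl23a read 2.65 at the lowest, 6.07 at the median and 6.68 at the highest (CPM) in WT, 8.01, 16.3, 7.86 and 9.23 in KI-96, 9.66, 13.2, 16.4 and 6.55 in KI-571 and 7.77, 25.2, 29.5 and 5.03 in KI-FL mice. The same 5 mice held the 5 highest levels of both genes, namely KI-96 replicate 2, KI-571 replicates 2 and 3 and KI-FL replicates 2 and 3, and the other KI mice read less. The log2 fold changes in KI-96, in KI-571 and in KI-FL were 1.12, 1.45 and 1.82 for Rpl35 (edgeR adjusted p = 0.623, 0.226 and 0.0560). For Rpl23a they were 0.89, 1.04 and 1.60 (edgeR adjusted p = 0.639, 0.402 and 0.0605). Most exonic bases of both genes lie in exons of other annotated genes, 66.2% for Rpl35 (Arpc5l and Wdr38) and 62.3% for Rpl23a (Snord42b and Tlcd1), so their counts come from the remainder and are uncertain.

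Rps27, a zinc-finger protein of the small subunit, lay on the other side. It read 169 at the lowest, 203 at the median and 242 at the highest (CPM) in WT, 157, 116, 86.6 and 198 in KI-96, 172, 135, 128 and 232 in KI-571 and 141, 119, 117 and 155 in KI-FL mice. All KI-FL mice lay below every WT mouse, and the 5 mice high in Rpl35 and Rpl23a were, with KI-96 replicate 3, the 6 lowest in Rps27. Its log2 fold changes were -0.53, -0.27 and -0.60 (edgeR adjusted p = 0.582, 0.811 and 0.129). The 6 tested paralogs of ribosomal proteins had medians of -0.027, 0.33 and 0.066 in KI-96, in KI-571 and in KI-FL, with 0 called by edgeR or DESeq2 and 0, 1 and 2 at an unadjusted p under 0.05. Of the paralogs of Rps27, Rps27l gave -0.24 in KI-FL (edgeR adjusted p = 0.671) and Rps27rt gave 0.57 in KI-571 and 0.22 in KI-FL (adjusted p = 0.732 and 0.753). Rps27 and Rps27rt share sequence, and 40.1% and 89.5% of their 100-base pieces occur in other genes. Their counts are therefore not separate measurements. The batch in which mice were killed, which the study used as a covariate, is not in the labels, and its part in this split of mice was not tested.

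**Figure D4:**
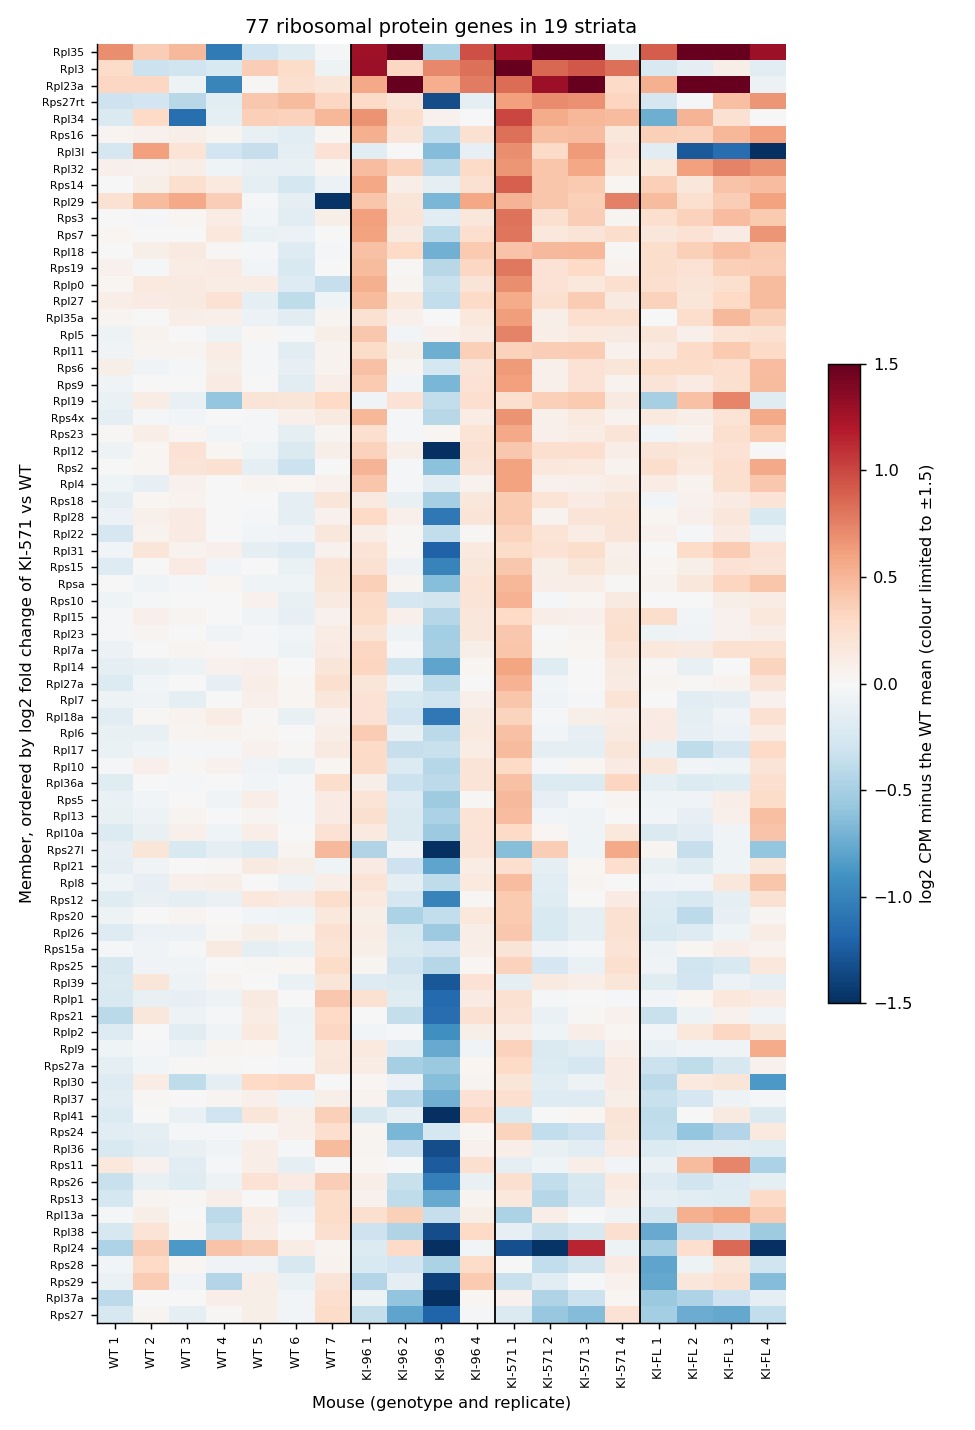
Log2 CPM of 77 of the 79 members in each of the 19 mice minus its WT mean (colour from -1.5 to 1.5), members ordered by the log2 fold change in KI-571 against WT. Most cells are pale, KI-571 replicate 1 is warm and KI-96 replicate 3 cold over most members, and Rpl35, Rpl23a and Rpl3 carry the strongest colours.

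Compared directly, the KI genotypes gave 1 call by edgeR, Rpl3 between KI-571 and KI-FL. Between KI-96 and KI-571 0 members were called by edgeR (background 0.0054%) and 0 by DESeq2 (background 0.189%). At an unadjusted p under 0.05, 0 were higher in KI-96 (background 3.14%) and 4 lower (Rpl22, Rps16, Rps18 and Rps27rt, background 2.38%). All members but Rpl13a had log2 differences below 0, with a median of -0.21 (all tested genes -0.0049), and the median without KI-96 replicate 3 was -0.072 with 12 members above 0. Rps18 and Rpl22, proteins of the small and the large subunit, differed by -0.28 ± 0.119 (SE) and -0.26 ± 0.105 (SE, edgeR adjusted p = 0.828 and 0.790). Between KI-96 and KI-FL edgeR called 0 members (background 0%) and DESeq2 1, Rpl3 (background 0.205%). At an unadjusted p under 0.05, 1 was higher in KI-96 (Rpl3, background 5.13%) and 2 lower (Rpl32 and Rplp2, background 3.77%). The median was -0.14 (all tested genes 0.017), or 0.0067 without KI-96 replicate 3. Between KI-571 and KI-FL edgeR called 1 member, Rpl3 (background 0.0864%), as did DESeq2 (background 0.475%). At an unadjusted p under 0.05, 3 were higher in KI-571 (Rpl3, Rpl34 and Rpl3l, background 4.67%) and 1 lower (Rpl13a, background 4.23%). The median was 0.089 (all tested genes 0.017). For the mean of the 3 KI genotypes against WT edgeR called 0 members (background 0.054%) and DESeq2 6, Rpl23a, Rpl3, Rpl32, Rpl35, Rps16 and Rps27 (background 1.47%). There 16 were higher (background 6.03%) and 3 lower (background 6.84%) at an unadjusted p under 0.05, and the median was 0.057 (all tested genes -0.022). The comparisons with WT share the 7 WT mice.

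**Figure D5:**
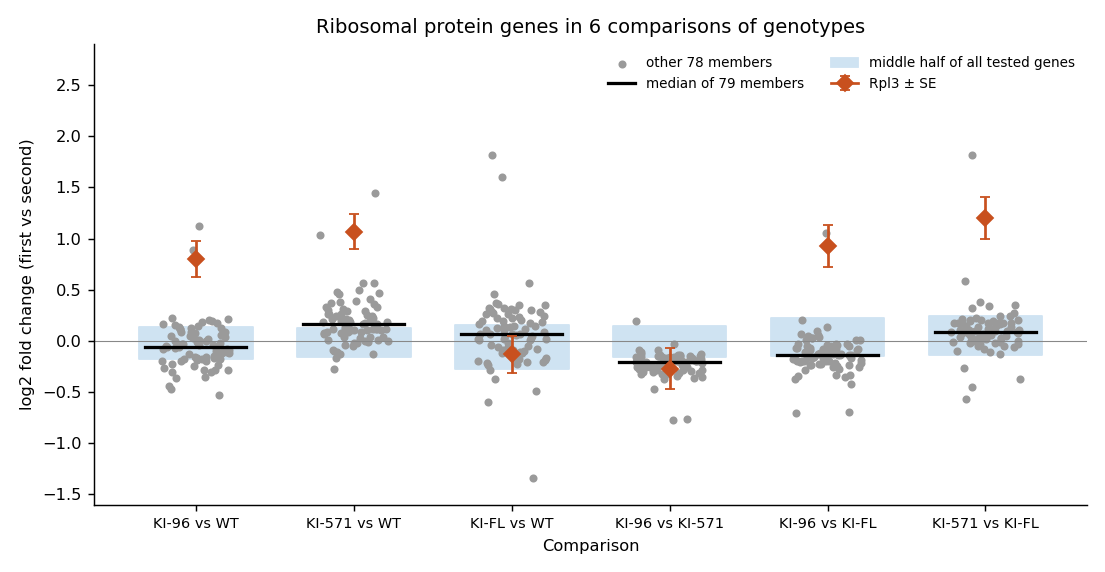
Log2 fold changes of the members in the 6 comparisons between genotypes, with grey points for 78 members, a diamond with its standard error for Rpl3, a line at the median of the 79 members and a band from the first to the third quartile of all tested genes. The medians run from -0.21 in KI-96 against KI-571 to 0.17 in KI-571 against WT, and Rpl3 stands at 1.07 in KI-571 against WT and at 1.20 in KI-571 against KI-FL.

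By role, the stalk genes were split. Rplp0, the stalk base, read 142 at the lowest, 196 at the median and 199.9 at the highest (CPM) in WT, 292, 209, 202 and 214 in KI-571 and 216, 207, 213 and 250.4 in KI-FL mice, with all of these mice above every WT mouse. Its log2 fold changes of 0.33 ± 0.136 (SE) and 0.28 ± 0.136 (SE) did not pass (edgeR adjusted p = 0.524 and 0.298). Rplp1 and Rplp2, which dimerise on Rplp0, gave 0.040 and 0.038 in KI-571 and 0.057 and 0.15 in KI-FL, within the spread between mice. Rpl11, the partner of Rpl5 on 5S rRNA, read 182 at the lowest, 209 at the median and 220.3 at the highest (CPM) in WT, 260.4, 263, 265 and 213 in KI-571 and 223, 249, 269 and 249.9 in KI-FL mice. All KI-FL mice lay above WT, with log2 fold changes of 0.29 and 0.28 (edgeR adjusted p = 0.609 and 0.309). The 4 X-linked members, Rpl10, Rpl36a, Rpl39 and Rps4x, had medians of -0.052 in KI-96, 0.11 in KI-571 and 0.0016 in KI-FL, and 0 passed edgeR, DESeq2 or an unadjusted p under 0.05.

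Of the ribosomal protein genes and relatives outside the name rule, Rps3a1, Fau, Rack1, Rpl22l1 and Rpl7l1 were followed. All 5 lay above 0 in each KI genotype against WT, and 0 passed edgeR or DESeq2, with 0, 1 and 1 higher at an unadjusted p under 0.05 in KI-96, in KI-571 and in KI-FL. That gene was Rpl22l1, the paralog of Rpl22, whose log2 fold changes were 0.58, 0.79 and 1.05 (edgeR adjusted p = 0.744, 0.589 and 0.155). Its mean CPM was 8.08 ± 2.39 (SD, n = 7) in WT and 16.7 ± 10.6 (n = 4) in KI-FL, where the mice ran from 3.79 to 25.98 and overlapped WT (4.46 to 12.2). Among WT mice the widest members were Rpl29, Rpl35 and Rpl34, and Rpl23 and Rpl5 were among the tightest. Rpl29 read 43.4 CPM in WT replicate 7 against 108 to 179 in the other 6.

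The genes that make and use ribosomes held 0 calls by edgeR in any list and genotype against WT. DESeq2 called 1 initiation factor, Eif2s3x, in KI-96, 4 mitochondrial ribosomal protein genes (Mrpl10, Mrpl19, Mrpl2 and Mrps34) in KI-FL and 0 in the other lists. Medians of log2 fold change against WT are given in the order KI-96, KI-571 and KI-FL. Counts at an unadjusted p under 0.05 stand in these lists against backgrounds of 4.36%, 3.89% and 7.89% of the tested genes higher and 3.09%, 3.83% and 8.84% lower. For 15 genes of RNA polymerase I and its factors, which transcribe rRNA, they were -0.094, 0.030 and 0.087, and 2, 2 and 4 were higher and 2, 1 and 1 lower at an unadjusted p under 0.05. Its members with the smallest p were Cd3eap (0.36 in KI-96) and Taf1c (0.34 in KI-FL, edgeR adjusted p = 0.148). For 44 ribosome assembly factors they were -0.023, 0.048 and 0.032, with 2, 4 and 7 higher and 1, 0 and 3 lower, and Pes1 and the methyltransferase Fbl gave 0.35 and 0.34 in KI-FL (edgeR adjusted p = 0.116 and 0.120). For 9 elongation factors they were 0.028, 0.13 and 0.14, with 2, 4 and 3 higher and 0 lower. Eef1a1, which brings aminoacyl-tRNA to the ribosome, gave 0.35, 0.44 and 0.46, and Eef2, the translocase, 0.40, 0.36 and 0.43 (lowest edgeR adjusted p = 0.131). For 35 initiation factors they were 0.054, 0.085 and 0.12, with 6, 4 and 5 higher and 0, 1 and 0 lower, among them Eif3b (0.39 in KI-FL) and the X-linked Eif2s3x (0.86 in KI-96, edgeR adjusted p = 0.288). Eif2s3x gave -0.020 in KI-571 and 0.25 in KI-FL. Every KI-96 mouse read high in Xist, so genotype and sex can hardly be told apart for this gene.

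The elongation factors Eef1a1 and Eef2 are also among the 17 tested TOP mRNAs that code for other proteins. Of all tested genes 47.2%, 48.3% and 46.1% lay above 0 in KI-96, in KI-571 and in KI-FL. For the 17 TOP mRNAs the medians were 0.084, 0.20 and 0.15, with 13, 16 and 17 of 17 above 0 and 3, 5 and 6 higher at an unadjusted p under 0.05. For the 14 regulators of TOP translation they were 0.12, -0.0073 and 0.078, with 3, 0 and 0 higher and 0, 0 and 2 lower, and Tsc2 gave 0.35 in KI-96 and the S6 kinase Rps6kb1 -0.31 in KI-FL (edgeR adjusted p = 0.623 and 0.174). The 77 tested mitochondrial ribosomal protein genes, which build a separate ribosome, had medians of -0.072, 0.011 and 0.048, with 19, 43 and 53 of 77 above 0 and 2, 2 and 6 higher and 2, 1 and 1 lower at an unadjusted p under 0.05. Their smallest adjusted p were those of Mrpl2 (0.42, edgeR adjusted p = 0.0605) and Mrpl10 (0.45, adjusted p = 0.0825) in KI-FL.

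Signals from other tissue moved with some mice and genotypes. The summed level of 6 choroid plexus markers was 45.8 to 410 CPM in WT and 36.4 to 93.7 in KI-96, while KI-571 mice read 202, 5093, 46.9 and 5341 CPM and KI-FL mice 3026, 187, 75.7 and 36.6 CPM. The summed level of 5 red cell markers was 163 to 483 CPM in KI-571 against 79.5 to 214 in WT, and 2 of 5 passed the edgeR test as higher. In KI-FL it was 43.5 to 103 CPM, with 0 of 5 markers above 0 in log2 fold change, 0 called by edgeR and 1, Hba-a1, by DESeq2. Liver markers were scarce, with a summed level of 5 markers of 0.344 to 0.909 CPM in WT against 0.379 to 36.2 in KI-96, 2.79 to 10.1 in KI-571 and 0.606 to 11.3 in KI-FL. Of the 4 tested, edgeR called 1 as higher in each KI genotype, with medians of 4.69, 3.91 and 2.93 on the log2 scale. The summed level of 4 cortical neuron markers was 952 CPM in WT replicate 3 against 13.6 to 77.1 in the other WT mice. It was 8.80 to 97.2 CPM in KI-96, 30.7 to 378 in KI-571 and 27.4 to 104 in KI-FL. Their median log2 fold changes were -2.20, -0.34 and -1.80, with 0 of 4 above 0 in each KI genotype and 0 called by edgeR or DESeq2. KI-571 replicate 1, the mouse with the highest members, read 202 CPM for choroid plexus and 163 for red cells, the lowest red cell level of the KI-571 mice. No list of markers was at the counting limit in all mice, and the part of these cells in the members' values was not tested.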

How the data were processed

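RNA-seq of total striatal RNA, extracted with Trizol, was available for 19 mice. Per the labels and the study's methods, the authors trimmed reads with BBduk, discarded reads under 100 bases, aligned with STAR to GRCm38 and counted reads per gene with HTSeq, and the deposited values are raw counts per gene with no normalization. Versions of these tools and the strand setting are not given in the sources used here. Of the table's columns, 4 belong to other samples and were not used, and 5 HTSeq summary lines were left out. Symbols came from GENCODE M21 by gene ID (54079 of 54232 matched). 

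Genes were filtered with filterByExpr (minimum count 10, minimum total 15), which kept 18521, all 79 members among them. Counts were fitted with library sizes scaled by TMM (factors 0.931 to 1.07) in the quasi-likelihood model of edgeR 4.0.16 (limma 3.58.1, R 4.3.3) with 1 term per genotype and all 19 mice, which share the estimate of spread (biological coefficient of variation 0.240). P-values were adjusted by Benjamini-Hochberg over the tested genes with a threshold of 0.05. DESeq2 1.42.0 was an alternative. Standard errors are the log2 fold change divided by the root of F. CPM and RPKM were computed on the TMM-scaled library sizes, and log2 CPM used a prior count of 2. The fit was tested on simulated data. The members and lists were chosen with earlier results of these data known. Named genes are Rpl3 and Rpl3l, members past the threshold, those with the smallest p, the extremes of RPKM, of r with Rpl3 and of SD in WT, the stalk and 5S genes, the paralogs, and the top genes of each list. A few genes are counted in totals and medians but not reported here by name. Gm7993, a pseudogene of another family, shares no 100-base piece with a member in the reference and was left out. Pairs of mice of 1 genotype differed by 7.78 to 106 times the sampling noise (chi-square per degree of freedom), so none was a copy. The labels do not say how mice were housed or handled, so p-values measure the spread between these mice. The study left out 1 WT mouse and fitted the batch of sacrifice, neither of which the labels name, and all 7 WT mice were kept. The limits that a count of 0 allows cover counting error only. The alternatives were DESeq2, other filters, the groups compared alone, WT replicates 1 to 4 or 5 to 7 alone (which differ in depth), Xist as a covariate for sex, a replicate block and leaving out each mouse.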

Additional observations from a re-analysis of the deposited data

Results flagged for a closer look

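In 144 groups of mice (a named member, Rpl3-ps1 or a summary over the members, in 1 genotype), 10 held a mouse whose value lay far from the rest by Dixon's ratio, where chance gives about 7 (1 in 20). That rate holds for groups not chosen from their values. Many of these members were named by their SD, r or p in the same data, so the counts cannot be compared. KI-571 replicate 1 accounted for 5 of them. It read 9.73 for Rpl3 (other KI-571 mice 8.95 to 9.06), 7.71 for Rpl34 (7.17 to 7.25), 8.17 for Rpl5 (7.52 to 7.57), 8.19 for Rplp0 (7.66 to 7.74) and 9.25 for Rplp1 (9.01 to 9.03). KI-571 replicate 4 was low in Rpl11 at 7.74, against 8.03 to 8.05. In WT, replicate 4 was low in Rpl23a at 1.46, against 2.37 to 2.76, and replicate 7 was low in Rpl29 at 5.44, against 6.76 to 7.48. KI-96 replicate 3 was low in Rplp2 at 6.31, against 7.19 to 7.32, and KI-FL replicate 4 was high in Rps13 at 7.0, against 6.53 to 6.58.

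Rpl3, a gene picked for its pattern, stood higher in KI-571 than in KI-FL. The gap was 1.20 on the log2 scale (edgeR adjusted p = 0.0214), which is the difference of their log2 fold changes against WT. The call held in 15 of the 19 fits that each left out a mouse. It was lost on the sum of Rpl3 and Rpl3-ps1 (0.85, edgeR adjusted p = 0.140). Whether the KI allele or the batch gave this gap was not tested. All 4 KI-571 mice lay above all 4 KI-FL mice.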

How the results depend on the processing

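The median log2 fold change of the members moved by less than the spread between mice in all 210 alternative values. That spread, an SD of 0.200, exceeds the medians against WT themselves (-0.058 in KI-96, 0.17 in KI-571 and 0.069 in KI-FL). Staying under it therefore does not show that a median held. In KI-571 against WT the median fell to 0.070 without replicate 1. In KI-96 its sign turned without replicate 3 (0.078 against WT and 0.0067 against KI-FL) and with Xist as a covariate (0.066 against WT). DESeq2 called 1 member in KI-96, 2 in KI-571 and 5 in KI-FL against WT (background 0.151%, 0.551% and 2.75%). It called 1 in KI-96 against KI-FL and 6 for the mean of the KI genotypes (background 0.205% and 1.47%). Rpl3 passed there at 0.80, 0.94 and 0.58 in KI-96 against WT, KI-96 against KI-FL and the mean. Without a filter the counts were 1, 2, 2, 1 and 3, and Rpl3 passed at 0.78, 0.95 and 0.56. With at least 10 counts in every mouse 1 member was called in KI-FL. With only the groups compared 2 were called in KI-571 and 7 in KI-FL. Apart from DESeq2, the share over all tested genes is not given for these settings. Their counts are therefore not read as a result about the members. Against WT replicates 1 to 4 alone 0 were called in KI-571 (Rpl3 1.22) and Rpl3 in KI-FL turned to 0.0082, and against WT replicates 5 to 7 alone 0 were called in KI-571 (Rpl3 0.89). With Rpl3 and Rpl3-ps1 summed, an alternative chosen after seeing the data, Rpl3 turned to 0.13 in KI-FL against WT, and KI-571 against KI-FL fell short at 0.85 with 0 members called. Rpl3 minus the median instead of the mean of the other members was also added later. It was 0.68 in WT, 1.56 in KI-96 (1.41 without replicate 3), 1.58 in KI-571 and 0.54 in KI-FL. The causes were not tested. 

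Leaving out each mouse, members called ranged from 0 to 1 in KI-571 against WT and against KI-FL, from 0 to 4 in KI-FL and from 0 to 5 for the mean, and Rpl3 ranged from 0.84 to 1.15, from 0.99 to 1.28 and, for the mean, from 0.50 to 0.64. Over all tested genes the calls in these fits ranged from 0 to 46 in KI-571 against WT and from 1 to 21 against KI-FL. They ranged from 0 to 159 in KI-FL against WT and from 3 to 173 for the mean. Of 24 same-numbered pairs of mice, 5 had r over 0.1 between their deviations from the genotype means (median -0.0048, highest 0.29). Mice of unlike numbers were not compared, so this check cannot say whether replicate numbers pair mice. With the replicate block Rpl3 was 1.20 in KI-571 (edgeR adjusted p = 0.0182) and turned to 0.057 in KI-FL against WT. Depth limits Rpl3l and Rpl24, both near 0 in some mice.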
